A study of Mus musculus with 12 samples.

Results

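Siglech, Bst2, Ccr9, Cadm1, Ly6d, Irf7, Irf8, Spib, Runx2 and Cox6a2 are 10 genes that mark or control plasmacytoid dendritic cells, and they are described here in sorted mouse leukaemia cells and fetal liver lymphoid cells. The genes were listed by name and chosen by their known roles together with earlier results on the levels in these same 12 libraries, so their levels and differences are given as a description and without a test. All 10 were found among the 21885 genes of the deposited table. All 10 also passed the filter on low values, 10 or more in 4 or more of the 12 libraries, as 12200 genes did. Siglech, Runx2 and Ccr9 did so through the leukaemia and Pax5 KO libraries alone, since none of them passed 7.9 in a Pax5 WT library.

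RNA-seq values were available for 3 groups of 4 libraries. P80R B-ALL libraries came from GFP-positive B-cell acute lymphoblastic leukaemia cells of genotype PAX5 P80R, an altered form of the B-lineage transcription factor PAX5, sorted from primary recipients 1300, 1301, 1302 and 1308. Pax5 KO libraries came from Pax5-/- fetal liver cells sorted as common lymphoid progenitors and pre-pro-B cells, the stages before B-lineage commitment, and Pax5 WT libraries from Pax5+/+ fetal liver cells sorted as pro-B and pre-BI cells, the stages just after it. Genotype and stage therefore differ together between Pax5 KO and Pax5 WT and cannot be told apart. The sources used here do not give how the mutant was introduced, the age of the mice or whether the fetal liver libraries came from separate animals, so p-values measure the spread between these libraries.

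Plasmacytoid dendritic cells are the immune cells that release large amounts of type I interferon when endosomal receptors meet viral nucleic acids. They arise from both myeloid and lymphoid progenitors, carry some lymphoid traits, and depend on the E protein Tcf4 together with Irf8, Spib and Runx2. Several of the 10 genes are not particular to them: Irf8 and Spib act in B cells too, and Ly6d also marks lymphoid progenitors that are biased to the B lineage.

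Values are read counts that the authors had divided by 1 factor per library, called scaled reads below. Depth was 24914250 to 29386256 reads per library in P80R B-ALL, 36871775 to 43513852 in Pax5 KO and 33191950 to 39465256 in Pax5 WT. The leukaemia libraries varied more than the others: the median standard deviation (SD) of a gene's log2 value was 0.47 in P80R B-ALL, 0.11 in Pax5 KO and 0.16 in Pax5 WT. Pax5 itself stood at 847, 1146, 1316 and 255 scaled reads in the 4 recipients, at 230 to 267 in Pax5 KO and at 6194 to 7315 in Pax5 WT, and reads of mutant and endogenous Pax5 were not separated. Recipient 1308 stands apart for the genes described here, so the log2 differences with P80R B-ALL are also given without it.

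Promoter sequences in the RefSeq table for the mouse build GRCm38.p6 matched 7 of the 10 genes in 8 windows of 300 bases, from 250 before to 50 after an annotated start, with 2 windows for Irf8. Cox6a2, Cadm1 and Ly6d had no entry. The 250 bases before the start are shown for Siglech, Ccr9 and Runx2, and for Bst2, the interferon-inducible member. Siglech, Ccr9 and Runx2 were near 0 in Pax5 WT and counted in all other libraries, Ccr9 with only 8 reads in recipient 1300. Capitals mark CACCTG or its reverse complement CAGGTG, an E-box of the kind that E proteins bind, and in Bst2 also 3 copies of GAAA in a row with 2 bases between neighbours, spaced as in an interferon-stimulated response element.
Siglech, chr7:55767934-55768183, plus strand: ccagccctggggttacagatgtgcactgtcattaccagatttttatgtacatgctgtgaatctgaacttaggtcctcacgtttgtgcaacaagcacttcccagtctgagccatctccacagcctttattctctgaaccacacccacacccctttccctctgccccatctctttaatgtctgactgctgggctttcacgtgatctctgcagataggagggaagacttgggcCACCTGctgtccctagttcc
Ccr9, chr9:123766961-123767210, plus strand: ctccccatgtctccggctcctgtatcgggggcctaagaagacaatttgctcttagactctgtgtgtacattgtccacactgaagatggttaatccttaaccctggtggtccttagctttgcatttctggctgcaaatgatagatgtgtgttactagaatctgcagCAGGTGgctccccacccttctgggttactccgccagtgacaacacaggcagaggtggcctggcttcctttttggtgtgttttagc
Runx2, chr17:44814628-44814877, minus strand: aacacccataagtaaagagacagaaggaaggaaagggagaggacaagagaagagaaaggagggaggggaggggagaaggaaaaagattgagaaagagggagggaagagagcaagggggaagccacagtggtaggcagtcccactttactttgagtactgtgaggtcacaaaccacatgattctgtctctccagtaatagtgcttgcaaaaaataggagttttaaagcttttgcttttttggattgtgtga
Bst2, chr8:71537473-71537722, minus strand: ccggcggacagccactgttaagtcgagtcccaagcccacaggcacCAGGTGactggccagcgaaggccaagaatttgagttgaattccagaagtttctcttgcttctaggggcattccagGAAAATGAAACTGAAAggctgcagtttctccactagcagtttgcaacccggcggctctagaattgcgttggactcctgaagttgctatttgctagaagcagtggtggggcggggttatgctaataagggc

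The Runx2 stretch holds no marked letters. Counted back from the start, the marked E-box begins at base -20 in Siglech, at base -85 in Ccr9 and at base -205 in Bst2. It was found in 4 of the 8 windows, the other being the second window of Irf8, and in 20.2% of all 32851 promoter windows searched on both strands. The spaced GAAA copies lie at bases -130 and -124 of Bst2 as a pair of overlapping matches. A pair of GAAA copies spaced in this way was in 1 of the 8 windows and in 3.44% of all windows. The longer run of Bst2 was not counted over all windows. The general E-box CANNTG, which contains the form above, was in 7 of 8 windows and in 72.3% of all, TGTGGT, a core letter run of Runx factors, in 2 of 8 and 16.8%, GAGGAA, a run bound by Spib and its relative PU.1, in 1 of 8 and 28.3%, and the joint ETS and IRF run, GGAA and GAAA with 2 bases between them, in 0 of 8 and 2.72%. These matches describe the letters only and say nothing of binding.

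**Figure D1:**
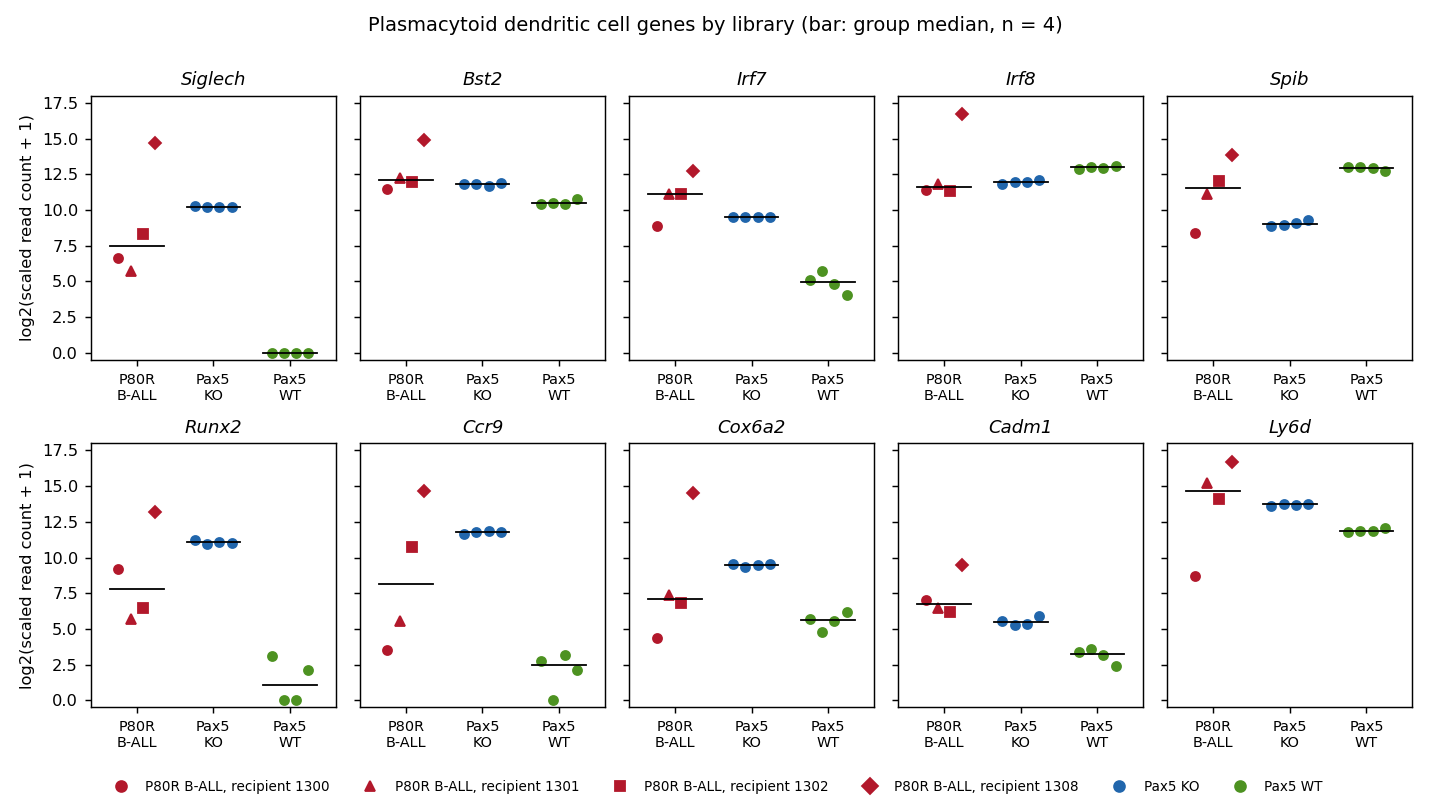
Level of each of the 10 genes in each library, as log2 of the scaled read count plus 1, for P80R B-ALL, Pax5 KO and Pax5 WT. Black bars are group medians of 4 libraries. Recipient 1308 (diamond) is the highest leukaemia library in 10 of 10 panels, and Siglech lies at 0 in the 4 Pax5 WT libraries.

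Among the surface proteins, Siglech, the sialic acid-binding receptor by which mouse plasmacytoid dendritic cells are commonly recognised, was counted in every P80R B-ALL and Pax5 KO library and in no Pax5 WT library. Siglech stood at 101, 52.9, 325 and 26551 scaled reads in recipients 1300, 1301, 1302 and 1308. In Pax5 KO it was at 1224, 1187, 1203 and 1166, and it was at 0 in the 4 Pax5 WT libraries. Recipient 1308 was therefore far above every Pax5 KO library, and the other 3 recipients were below every one of them, while all 8 of these libraries were above Pax5 WT. In bulk libraries, fewer cells of a type and less RNA per cell cannot be told apart. Against a floor of 3 reads per Pax5 WT library, the mean was at least 2375-fold higher in P80R B-ALL, at least 56.1-fold higher without recipient 1308, and at least 419.9-fold higher in Pax5 KO. The log2 difference between P80R B-ALL and Pax5 KO was -1.36 ± 1.67 (SE) with all recipients and -3.30 ± 0.52 without recipient 1308.

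Ccr9, the chemokine receptor that guides plasmacytoid dendritic cells and early thymic progenitors toward its gut and thymus ligand, followed a like order. Its values were 10.5, 46.8, 1677 and 25992 in the recipients in the order given above, 3150, 3462, 3654 and 3525 in Pax5 KO, and 5.7, 0, 7.9 and 3.4 in Pax5 WT. It had the widest range of the 10 genes within the leukaemia, 11.14 on the log2 scale against 0.21 in Pax5 KO. Recipient 1300, at 8 reads, was close to the Pax5 WT libraries, of which library 3 also had 8 reads. Recipients 1300, 1301 and 1302 were all below Pax5 KO. On the log2 scale Ccr9 differed by -3.13 ± 2.08 between P80R B-ALL and Pax5 KO, by 6.61 ± 2.17 between P80R B-ALL and Pax5 WT, and by 9.74 ± 0.52 between Pax5 KO and Pax5 WT. Leaving out recipient 1308 gave -5.14 ± 1.44 and 4.59 ± 1.58 for the first and second of these.

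Bst2 encodes tetherin, an interferon-inducible membrane protein that holds budding virus at the cell surface and is the target of plasmacytoid dendritic cell antibodies. Its values were 2800, 4847, 3905 and 30351 in the 4 recipients, 3644, 3595, 3228 and 3830 in Pax5 KO, and 1402, 1449, 1360 and 1719 in Pax5 WT. Unlike Siglech and Ccr9, it was well detected in all 12 libraries. Leukaemia and Pax5 KO overlapped, and both lay wholly above Pax5 WT, by 2.10 ± 0.65 and 1.27 ± 0.08 on the log2 scale. Without recipient 1308 the leukaemia differed from Pax5 KO by 0.07 ± 0.18 and from Pax5 WT by 1.35 ± 0.19.

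Cadm1, an adhesion molecule of the immunoglobulin superfamily that is also found on cross-presenting conventional dendritic cells, was the lowest of the 10 in Pax5 KO. It stood at 126, 86.1, 73.2 and 697 in the recipients, 46.4, 38.6, 40.3 and 60.0 in Pax5 KO, and 9.5, 11.0, 7.9 and 4.3 in Pax5 WT. It was the only 1 of the 10 genes whose 3 groups did not overlap at all, with the order P80R B-ALL above Pax5 KO above Pax5 WT. The log2 difference was 1.73 ± 0.68 between P80R B-ALL and Pax5 KO, 4.14 ± 0.73 between P80R B-ALL and Pax5 WT, and 2.41 ± 0.35 between Pax5 KO and Pax5 WT. Without recipient 1308 the leukaemia differences were 1.01 ± 0.35 and 3.42 ± 0.48. The Pax5 WT values rest on 5 to 11 reads per library.

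Ly6d, a lipid-anchored surface protein of B-cell-biased lymphoid progenitors and of the lymphoid progenitors that give rise to plasmacytoid dendritic cells, was abundant everywhere but in 1 leukaemia. It reached 413, 38379, 17834 and 105192 scaled reads in the recipients, 12658, 13752, 13166 and 14037 in Pax5 KO, and 3501, 3786, 3707 and 4343 in Pax5 WT. Recipient 1300 was below every Pax5 WT library and the other 3 recipients were above every Pax5 KO library, so the leukaemia spanned both fetal liver groups. Pax5 KO exceeded Pax5 WT by 1.81 ± 0.07 on the log2 scale. P80R B-ALL differed by -0.03 ± 1.44 from Pax5 KO and by 1.78 ± 1.44 from Pax5 WT, or by -1.03 ± 1.36 and 0.78 ± 1.37 without recipient 1308. Without recipient 1300 the difference from Pax5 KO was 1.64.

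Of the 4 transcription factors, Irf7, the factor that turns on interferon alpha genes after nucleic-acid sensing, was higher in Pax5 KO and in the leukaemia than in Pax5 WT. Irf7 stood at 463, 2184, 2248 and 6692 in the recipients, at 748, 745, 726 and 744 in Pax5 KO, and at 33.1, 53.0, 26.7 and 15.5 in Pax5 WT. Recipient 1300 was below and the other 3 recipients were above all Pax5 KO libraries, and all of these were above Pax5 WT. Expressed on the log2 scale, Irf7 differed by 1.41 ± 0.66 between P80R B-ALL and Pax5 KO, by 6.03 ± 0.72 between P80R B-ALL and Pax5 WT, and by 4.61 ± 0.29 between Pax5 KO and Pax5 WT. Without recipient 1308 the leukaemia differences were 0.83 ± 0.51 and 5.44 ± 0.62.

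Irf8, which directs dendritic cell and monocyte lineages and is also active in B cells, ran the other way between the fetal liver groups. Its scaled reads were 2735, 3600, 2538 and 106755 in the recipients, 3646, 3984, 3905 and 4317 in Pax5 KO, and 7591, 8131, 8072 and 8632 in Pax5 WT. Recipient 1308 was above all 11 other libraries, and recipients 1300, 1301 and 1302 were below all 8 fetal liver libraries. Pax5 KO was below Pax5 WT by a log2 difference of -1.03 ± 0.06. The leukaemia differed from Pax5 KO by 0.86 ± 1.08 and from Pax5 WT by -0.17 ± 1.08, and without recipient 1308 by -0.44 ± 0.14 and -1.47 ± 0.15, so 1 library sets the sign against Pax5 KO. Against Pax5 WT the sign turned without any 1 of the other recipients, with log2 differences of 0.16 to 0.33.

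Spib, the ETS factor that sustains plasmacytoid dendritic cells in mouse and human and also acts in B-cell signalling, was lowest in Pax5 KO except for 1 leukaemia. It stood at 342, 2254, 4116 and 14513 in the recipients, at 467, 505, 543 and 640 in Pax5 KO, and at 8118, 8194, 7995 and 6981 in Pax5 WT. Recipient 1300 was below every Pax5 KO library, recipients 1301 and 1302 lay between the fetal liver groups, and recipient 1308 was above every Pax5 WT library. Pax5 KO differed from Pax5 WT by -3.86 ± 0.10 on the log2 scale. The leukaemia differed from Pax5 KO by 2.28 ± 0.94 and from Pax5 WT by -1.58 ± 0.93, or by 1.46 ± 0.73 and -2.41 ± 0.74 without recipient 1308.

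Runx2 is a Runt-domain factor needed for plasmacytoid dendritic cells to leave the bone marrow. Against the fetal liver groups it was placed like Siglech and Ccr9 rather than like the other factors. Among the recipients other than 1308, Siglech and Ccr9 were highest in recipient 1302 but Runx2 in recipient 1300. Its values were 576, 50.5, 86.8 and 9134 in the recipients, 2355, 1942, 2166.2 and 2122 in Pax5 KO, and 7.6, 0, 0 and 3.4 in Pax5 WT, where 2 libraries had no read. Recipient 1308 was above and the other 3 recipients were below all Pax5 KO libraries, and no leukaemia library overlapped Pax5 WT. Pax5 KO exceeded Pax5 WT by 9.75 ± 0.59 on the log2 scale. The leukaemia differed from Pax5 KO by -2.45 ± 1.40 and from Pax5 WT by 7.31 ± 1.54, or by -3.96 ± 0.71 and 5.79 ± 1.08 without recipient 1308.

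Cox6a2, the heart and muscle isoform of a cytochrome c oxidase subunit that is also found in plasmacytoid dendritic cells, had the largest contrast between recipient 1308 and the other leukaemias relative to the highest of them. It stood at 19.7, 164, 114 and 23684 scaled reads in the recipients, at 756, 659, 698 and 758 in Pax5 KO, and at 50.1, 26.01, 46.5 and 71.4 in Pax5 WT. Recipient 1308 was 144.7-fold above the next recipient, recipients 1301 and 1302 were between the fetal liver groups, and recipient 1300 was below both. Pax5 KO differed from Pax5 WT by 3.94 ± 0.24 on the log2 scale. The leukaemia differed from Pax5 KO by -1.21 ± 1.81 and from Pax5 WT by 2.73 ± 1.83, or by -3.29 ± 0.63 and 0.65 ± 0.72 without recipient 1308, and by 0.09 from Pax5 KO without recipient 1300. In the older annotation GENCODE M21, 10.3% of the exon bases of Cox6a2 overlap Itgad on the opposite strand, and because the library kit does not mark strand, reads there cannot be assigned to 1 of the genes. Irf7 shares 1.19% of its exon bases with Phrf1 and Ccr9 0.214% with Slc6a20a in the same way. Larger shares, 18.8% of Ccr9 and 5.87% of Runx2, lie opposite AC165425.1 and Runx2os1, and 2.62% of Ccr9 lies on the strand of Gm17200, genes that are not analysed here.

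**Figure D2:**
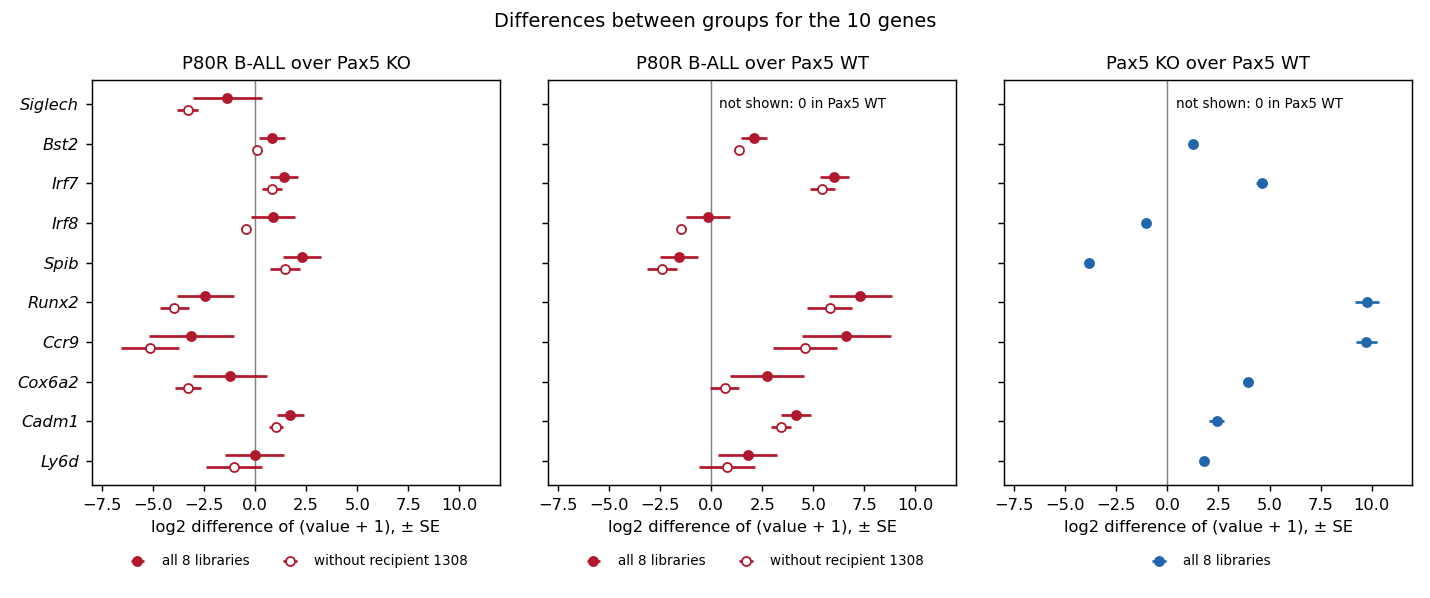
Log2 difference of the value plus 1, with its standard error, for the 10 genes in P80R B-ALL over Pax5 KO, P80R B-ALL over Pax5 WT and Pax5 KO over Pax5 WT. Open points leave out recipient 1308, and Siglech is not drawn against Pax5 WT, where it was at 0. Irf8 and Spib are the 2 genes left of 0 in Pax5 KO over Pax5 WT.

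Between Pax5 KO and Pax5 WT, 8 of the 10 genes were higher and 2 lower, with no overlap of libraries for any of them. The same non-overlap held for 32.4% of all tested genes in the higher and 26.7% in the lower direction. Since the genes were picked with these results known, nothing is read from the counts. Median log2 difference over the 10 was 3.18, against 0.06 over all genes.

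Set against Pax5 WT, 6 of the 10 genes were wholly above in P80R B-ALL (Siglech, Bst2, Irf7, Runx2, Ccr9 and Cadm1) and the other 4 overlapped, where 21.2% of all genes were wholly above. Ccr9 was so through the scaling alone, since recipient 1300 and Pax5 WT library 3 had 8 reads each. Without recipient 1308 the same 6 were wholly above and Irf8 and Spib were wholly below, beside 24.4% and 23.5% of all genes. Cadm1 alone was wholly above Pax5 KO, beside 19.5% of all genes. Without recipient 1308, Cadm1 was wholly above and Siglech, Irf8, Runx2, Ccr9 and Cox6a2 were wholly below, beside 22.8% and 29.1% of all genes.

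For 5 of the 10 genes the direction between P80R B-ALL and Pax5 KO depended on the scale of the average. Siglech, Runx2, Ccr9, Cox6a2 and Ly6d had log2 differences below 0 in the fit of log2 values. Models of the recovered reads, which follow the arithmetic mean and so recipient 1308, gave positive log2 differences in edgeR, at 2.53, 0.23, 1.04, 3.09 and 1.64 in that order. DESeq2 gave the same signs, and TMM scaling of the log2 values turned Ly6d alone, to 0.01. The arithmetic means were 6758 in P80R B-ALL and 1195 in Pax5 KO for Siglech, and 160 in P80R B-ALL without recipient 1308. No such change of sign occurred in Pax5 KO over Pax5 WT.

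**Figure D3:**
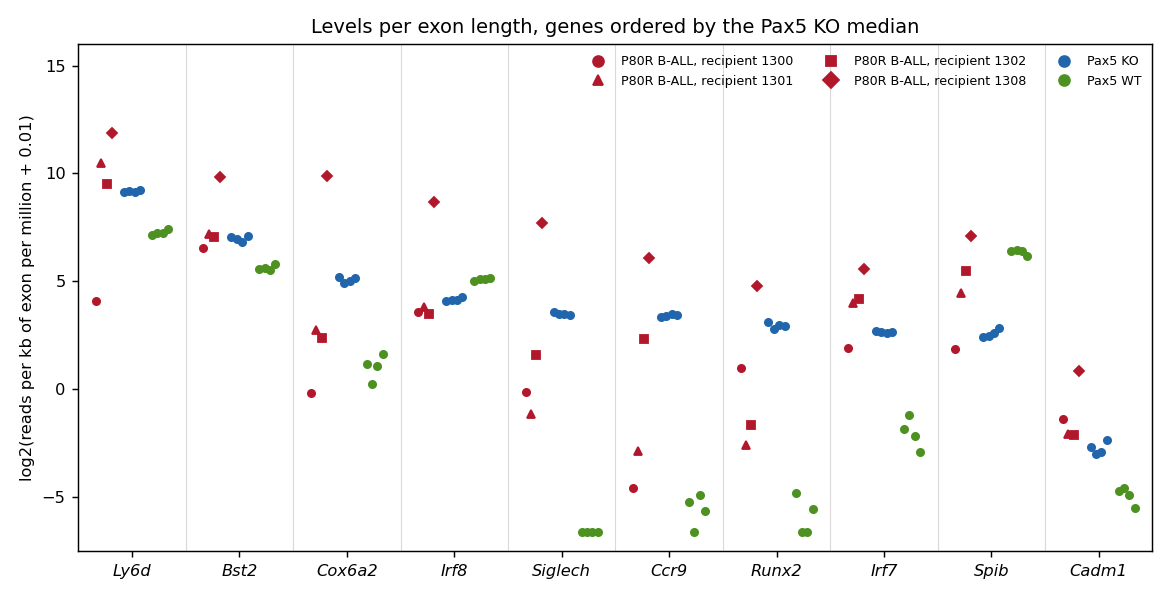
Reads per length of exon and library depth (RPKM) for the 10 genes, on a log2 scale after adding 0.01, with genes ordered by their Pax5 KO median. Points are single libraries of P80R B-ALL, Pax5 KO and Pax5 WT. Ly6d has the highest median in all 3 groups, and the Spib median is 5.77 RPKM in Pax5 KO, against 84.9 RPKM in Pax5 WT.

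Levels of different genes were compared per length, as RPKM, the reads per length of exon and per library depth, with exon lengths of GENCODE M21. In P80R B-ALL the medians ran from 1083 RPKM for Ly6d through 141 for Bst2, 33.0 for Spib, 17.2 for Irf7, 13.0 for Irf8, 5.92 for Cox6a2, 2.58 for Ccr9, 1.94 for Siglech and 1.15 for Runx2 to 0.299 for Cadm1, and every neighbouring pair overlapped. Within recipient 1308 the order was another one: Ly6d at 3789 RPKM was followed by Cox6a2 at 933, Bst2 at 901, Irf8 at 406, Siglech at 210, Spib at 136, Ccr9 at 67.9, Irf7 at 47.5, Runx2 at 27.7 and Cadm1 at 1.79. Pax5 KO had medians of 571 RPKM for Ly6d, 129 for Bst2, 34.0 for Cox6a2, 17.6 for Irf8, 11.1 for Siglech, 10.8 for Ccr9, 7.70 for Runx2, 6.23 for Irf7, 5.77 for Spib and 0.134 for Cadm1. Its only overlapping neighbours were Siglech with Ccr9 and Irf7 with Spib. In Pax5 WT, Ly6d at 152 RPKM, Spib at 84.9, Bst2 at 47.6, Irf8 at 34.7, Cox6a2 at 2.15 and Irf7 at 0.239 followed each other without overlap, and Cadm1, Ccr9, Runx2 and Siglech were at 0.0251 or less with overlapping neighbours.

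Recipient 1308 was the highest of the 4 leukaemias for 10 of the 10 genes, and it was the highest for 31.5% of all tested genes. Its log2 value exceeded the median of the other 3 recipients by 4.14 at the median of the 10 genes, with a range of 1.61 for Irf7 to 9.09 for Ccr9, against 0.05 at the median of all tested genes. An excess above 2 was found for 9 of the 10 and for 9.89% of all genes. At the other end, recipient 1300 was the lowest leukaemia for 6 of the 10, and for 26.5% of all genes.

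Conventional dendritic cell markers and granulocyte and monocyte markers shared the excess of recipient 1308 at least as much as the 10 genes, whose median log2 excess was 4.14. T and NK markers shared it less, and B-lineage markers did not. Recipient 1300 was the lowest leukaemia for the summed 10 genes, at 7586 scaled reads, but not for granulocyte and monocyte markers. Conventional dendritic cell markers (12 genes, all in the table) summed to 3554, 5565, 16798 and 371178 scaled reads in recipients 1300, 1301, 1302 and 1308, to 2476 to 2798 in Pax5 KO and to 1636 to 2064 in Pax5 WT, where Itgax, Clec9a, Cd209a, Clec10a and Cd8a were at 0. In recipient 1308, 9 of their 10 tested genes were the highest of the leukaemias, with a median log2 excess of 5.73, and 10 of 11 tested granulocyte and monocyte markers were, with 4.16. Granulocyte and monocyte markers summed to 134922, 16249, 7018 and 168532 in the recipients, to 11643 to 12380 in Pax5 KO and to 590 to 858 in Pax5 WT, where Elane, S100a8, S100a9 and Cebpe were at 0. B-lineage markers did not share the excess of recipient 1308: they summed to 92654, 152761, 136998 and 109521 in the recipients, to 40022 to 40964 in Pax5 KO and to 285970 to 327997 in Pax5 WT, and their median log2 excess in recipient 1308 was -0.24. T and NK markers summed to 7993 to 15689 in P80R B-ALL, 4292 to 4471 in Pax5 KO and 761 to 1014 in Pax5 WT, where Cd3e, Cd3g, Cd4, Cd8a, Bcl11b, Ncr1 and Gzmb were at 0. Recipient 1308 was the highest leukaemia for 7 of the 10 tested T and NK markers, with a median log2 excess of 2.44. Each sum is led by the most abundant genes of its list, so it does not stand for all of them, while the median log2 excess weighs each tested gene alike. The part of these other markers in the levels of the 10 genes was not tested.

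**Figure D4:**
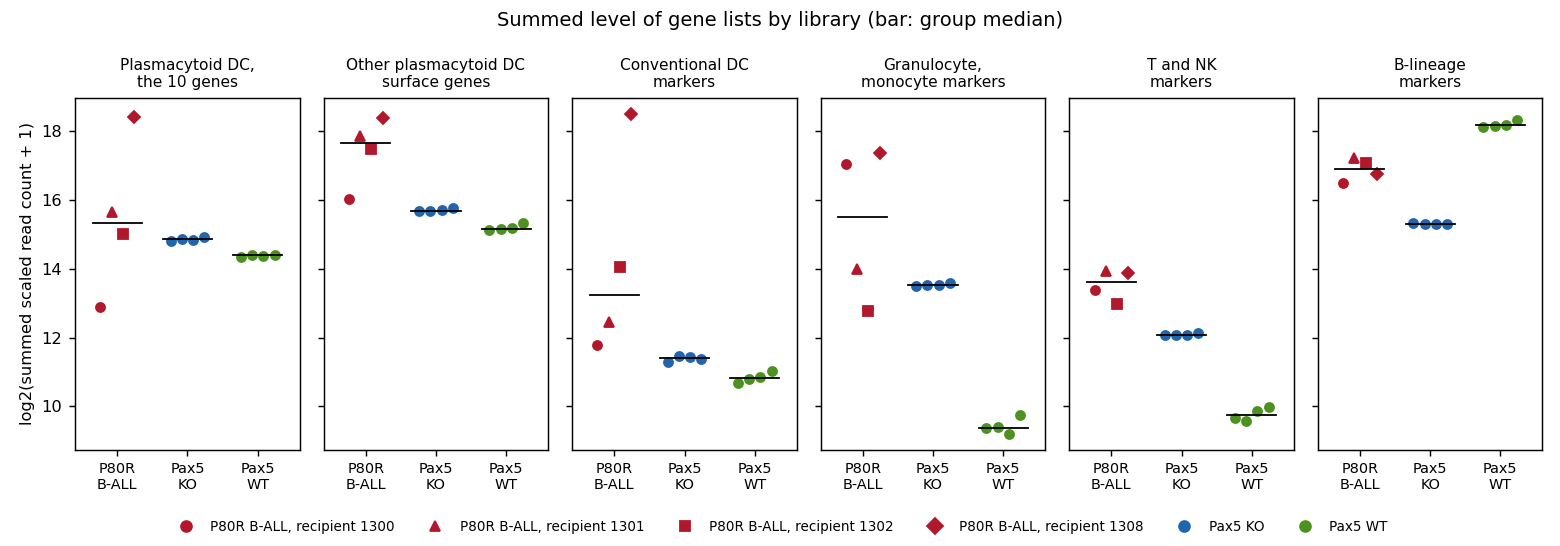
Summed scaled reads of 6 gene lists in each library, as log2 of the sum plus 1, for P80R B-ALL, Pax5 KO and Pax5 WT, with bars at the group medians. Recipient 1308 is the highest leukaemia for the 10 genes and for the conventional dendritic cell and granulocyte and monocyte markers. It lies among the other recipients for B-lineage markers.

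Beyond the 10, 34 other genes of plasmacytoid dendritic cells were listed as regulators, surface and cytoplasmic genes, and parts of endosomal nucleic-acid sensing. Of these, 33 were tested, with a threshold of 0.05 on limma's adjusted p. In simulated data the share of false calls was above this threshold in both comparisons with P80R B-ALL. The lists were chosen with earlier results of these data known, so the counts are a description. Apart from Tcf4, Bcl11a, Zeb2, Tlr7, Tlr9, Klk1 and Klra17, genes named from these lists were picked for their low adjusted p, which therefore does not test the lists. Between Pax5 KO and Pax5 WT, 17 were higher and 8 lower (median log2 difference 0.38, all genes 0.06). In P80R B-ALL over Pax5 WT, 8 were higher and 4 lower (median 0.53, all genes 0.00), and 9 and 6 without recipient 1308 (median -0.08). In P80R B-ALL over Pax5 KO, 3 were higher and 5 lower (median -0.06, all genes -0.11), and 3 and 11 without recipient 1308 (median -0.46). In Pax5 KO over Pax5 WT, 64.8% of all genes passed, 35.7% as higher and 29.1% as lower. In P80R B-ALL over Pax5 WT, 39.9% passed, 21.0% as higher and 18.9% as lower, and without recipient 1308 42.5%, 22.0% and 20.5%. In P80R B-ALL over Pax5 KO, 38.4% passed, 17.6% as higher and 20.8% as lower, and without recipient 1308 43.6%, 19.4% and 24.2%.

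Of the 8 regulators, 4 were higher and 4 lower in Pax5 KO than in Pax5 WT, beside 35.7% and 29.1% of all genes. Tcf4, the E protein that founds plasmacytoid dendritic cell identity, was lower in Pax5 KO, at 5649 ± 311 (mean ± SD, n = 4 per group here and below) against 7454 ± 377 in Pax5 WT, a log2 difference of -0.40 ± 0.06 (limma adjusted p = 0.000103). Zeb2, a repressor required in the lineage, was likewise lower in Pax5 KO, at 2853 ± 60.6 against 4522 ± 661 in Pax5 WT (-0.65 ± 0.09, limma adjusted p = 6.35e-05). With all 12 libraries in 1 limma fit, which takes in the wider leukaemia spread, neither passed (adjusted p = 0.474 for Tcf4, within 3.60e-09 to 0.474 over all alternatives, and 0.0812 for Zeb2, within 2.50e-12 to 0.0812). Bcl11a, which supports Tcf4, differed less, with 4906 ± 165 in Pax5 KO and 5476 ± 280 in Pax5 WT (-0.16 ± 0.06, limma adjusted p = 0.0285), and passed the threshold no longer without Pax5 KO library 2 (adjusted p = 0.0819), Pax5 WT library 1 (0.0747) or Pax5 WT library 3 (0.0835), within 0.00387 to 0.644 over all alternatives. Irf4 fell too, to 221 ± 42.4 in Pax5 KO against 2866 ± 482 in Pax5 WT, while Id2, the inhibitor of E proteins that opposes plasmacytoid fate, rose to 2950 ± 200 against 321 ± 57.4, and Mycl rose to 516 ± 62.3 against 29.6 ± 10.9 (limma adjusted p = 9.50e-10, 2.99e-10 and 1.99e-08). In the leukaemias, Tcf4 stood at 14083, 5160, 8276 and 31764, overlapping both fetal liver groups, and differed by 1.06 ± 0.47 from Pax5 KO (limma adjusted p = 0.105) and by 0.66 ± 0.47 from Pax5 WT (limma adjusted p = 0.286). The first of these passed the threshold without recipient 1301 (limma adjusted p = 0.0260) and with all 12 libraries in 1 limma fit (0.0454, or 0.0122 with variance weights per group). It also passed in edgeR (0.0437) and in DESeq2 (0.00433), within 0.00433 to 0.368 over all alternatives. The differences were smaller without recipient 1308, 0.58 ± 0.29 from Pax5 KO (limma adjusted p = 0.141) and 0.18 ± 0.29 from Pax5 WT (limma adjusted p = 0.639). Zeb2 and Bcl11a in P80R B-ALL did not pass against Pax5 WT (limma adjusted p = 0.0638 and 0.246) or Pax5 KO (0.698 and 0.474). Zeb2 against Pax5 WT passed with all 12 libraries in 1 limma fit (adjusted p = 0.0235, or 0.0204 with variance weights per group), within 0.00761 to 0.151 over all alternatives. For Bcl11a against Pax5 WT the range was 0.0154 to 0.536. Without recipient 1308, Zeb2 and Bcl11a differed from Pax5 WT by -1.10 ± 0.24 and -0.70 ± 0.18 (limma adjusted p = 0.00761 and 0.0154). From Pax5 KO they then differed by -0.45 ± 0.22 and -0.55 ± 0.18 (limma adjusted p = 0.135 and 0.0396).

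Id2 was also higher in P80R B-ALL than in Pax5 WT, at 2952, 3011, 1590 and 13127 in the recipients against 277 to 399, a log2 difference of 3.54 ± 0.54 (limma adjusted p = 0.00111), and 2.93 ± 0.26 without recipient 1308 (0.000101). Irf4 lay between the fetal liver groups, with 909 ± 764 in P80R B-ALL. It was lower than in Pax5 WT by a log2 difference of -1.99 ± 0.48 (limma adjusted p = 0.0104) and higher than in Pax5 KO by 1.70 ± 0.50 (limma adjusted p = 0.0263). The difference from Pax5 KO no longer passed without recipient 1301 or any 1 Pax5 KO library (adjusted p = 0.0502 to 0.0726, within 0.000238 to 0.0726 over all alternatives). Irf4 values without recipient 1308 were log2 differences of -1.94 ± 0.55 from Pax5 WT and 1.76 ± 0.57 from Pax5 KO. Ikzf1, the Ikaros factor that many lymphoid lineages share, was lower in P80R B-ALL than in Pax5 KO, at 6850 ± 1603 against 10770 ± 270 (-0.68 ± 0.16, limma adjusted p = 0.0116, and -0.69 ± 0.18 without recipient 1308).

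**Figure D5:**
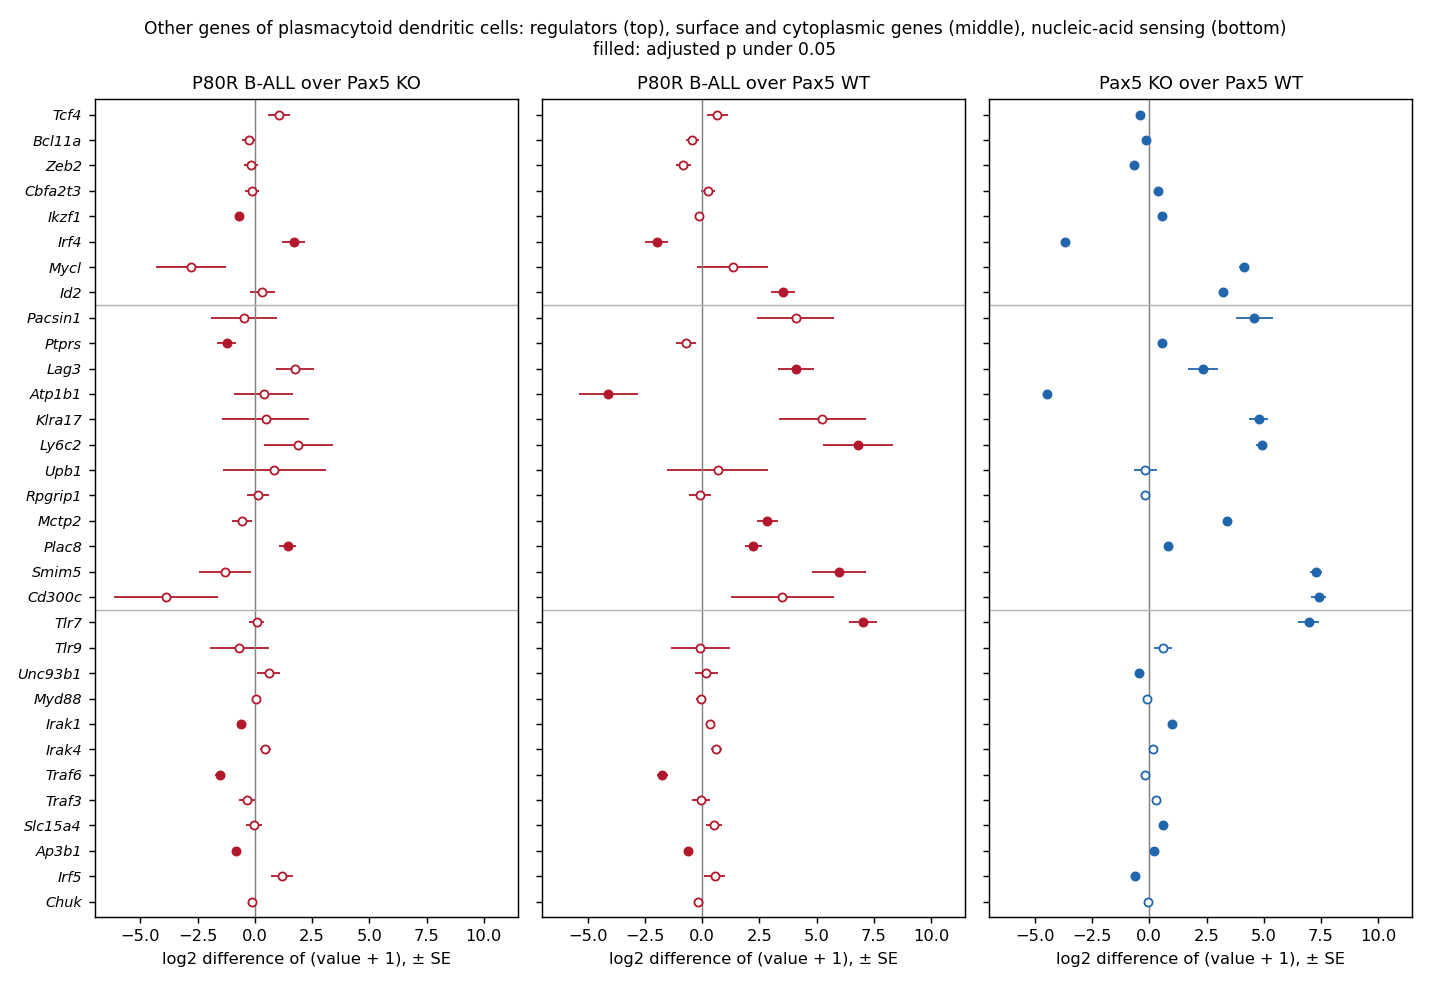
Log2 differences with standard errors of 32 of the 33 other genes of plasmacytoid dendritic cells in the 3 comparisons. Filled points have a limma adjusted p under 0.05. In Pax5 KO over Pax5 WT the regulators are split 4 and 4 around 0, while 9 surface and cytoplasmic genes lie to the right with filled points. The filled points of Cd300c and Klra17 there are no test, since both met the filter on low values only with the Pax5 KO libraries.

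Among the surface and cytoplasmic genes, 9 of 13 tested genes rose and 2 fell in Pax5 KO over Pax5 WT, beside 35.7% and 29.1% of all genes. Their median log2 difference was 2.35, and 0.81 with the 3 genes at 0 in Pax5 WT set to their lower bounds. Smim5, a small membrane protein, rose to 1900 ± 134 in Pax5 KO against 12.1 ± 6.11 in Pax5 WT (limma adjusted p = 2.69e-10). Cd300c, an immunoglobulin-like receptor, was at 170 ± 22.9 in Pax5 KO, at least 59.9-fold above Pax5 WT, where it was at 0. It was at 0, 0, 5.0 and 2823 in the 4 recipients. Cd300c met the filter on low values only with the Pax5 KO libraries, where it was high, so no p is given for it. The same holds for Klra17, at 23.8 to 32.0 in Pax5 KO and 0 in Pax5 WT. Both are among the 9 genes counted as higher here and the 17 above, so these counts rest partly on that filter. Atp1b1, a sodium pump subunit, fell to 378 ± 22.9 in Pax5 KO against 8457 ± 162 in Pax5 WT (limma adjusted p = 1.69e-13). Recipient 1308 was the highest leukaemia for 12 of the 13, beside 31.5% of all tested genes. Klk1, a kallikrein protease, had 153 reads in recipient 1308 and 0 in each of the other 11 libraries.

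Plac8, a cysteine-rich protein of many leukocytes, was at 128997 ± 69759 in P80R B-ALL, 42099 ± 1874 in Pax5 KO and 24189 ± 3237 in Pax5 WT, higher than in Pax5 KO by 1.43 ± 0.38 and than in Pax5 WT by 2.24 ± 0.38 (limma adjusted p = 0.0176 and 0.00181), or by 1.33 ± 0.42 and 2.14 ± 0.42 without recipient 1308. Ptprs, a receptor phosphatase of plasmacytoid dendritic cells, was lower than in Pax5 KO, at 2494 ± 1504 against 4987 ± 93.3 (-1.24 ± 0.42, limma adjusted p = 0.0438, and -1.54 ± 0.38 without recipient 1308). It did not pass without recipient 1300 (adjusted p = 0.0976), recipient 1301 (0.0748) or any 1 Pax5 KO library (0.0880 to 0.0941), in edgeR (0.0937) or with no filter on low values (0.0557), within 0.0138 to 0.0976 over all alternatives.

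Of the sensing genes, Tlr7 is the endosomal receptor for single-stranded RNA. It stood at 1114, 2044, 1939 and 3900 in the recipients, 1833, 2100, 1941 and 1887 in Pax5 KO, and 13.2, 35.02, 3.95 and 21.5 in Pax5 WT. Leukaemia and Pax5 KO overlapped (log2 difference 0.07 ± 0.32, limma adjusted p = 0.877), and both rose above Pax5 WT, by 7.04 ± 0.61 (limma adjusted p = 5.40e-05) and 6.97 ± 0.46 (limma adjusted p = 6.37e-08). Leaving out recipient 1308, the leukaemia differed by -0.24 ± 0.21 from Pax5 KO and by 6.73 ± 0.64 from Pax5 WT. Tlr9, the receptor for unmethylated DNA and the other main sensor of these cells, was low, with 0, 7, 10 and 107 reads in the recipients, 14 to 36 reads in Pax5 KO and 8 to 18 reads in Pax5 WT, and did not pass the threshold in any comparison (limma adjusted p = 0.708 in P80R B-ALL over Pax5 KO, 0.968 in P80R B-ALL over Pax5 WT and 0.221 in Pax5 KO over Pax5 WT). Without recipient 1308 its limma adjusted p was 0.129 over Pax5 KO and 0.298 over Pax5 WT. Of the 12 sensing genes, 4 were higher and 2 lower in Pax5 KO over Pax5 WT, beside 35.7% and 29.1% of all genes. Among them were Irak1, a kinase downstream of the receptors, at 4809 ± 49.9 against 2423 ± 144 (limma adjusted p = 2.35e-08), and Unc93b1, which carries the receptors to endosomes, at 5054 ± 157 against 6805 ± 261 (limma adjusted p = 1.89e-05). Unc93b1 did not pass with all 12 libraries in 1 limma fit (adjusted p = 0.472, within 1.71e-16 to 0.472 over all alternatives). Traf6, the ubiquitin ligase of the same cascade, was lower in P80R B-ALL than in both others, at 1296 ± 390, against 3662 ± 350 in Pax5 KO and 4266 ± 874 in Pax5 WT (limma adjusted p = 0.000797 and 0.000462), by log2 differences of -1.54 ± 0.20 and -1.73 ± 0.23, or -1.44 ± 0.20 and -1.64 ± 0.24 without recipient 1308.

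Type I interferon genes, the product that Irf7 controls, were at or near 0. Over 15 such genes the summed reads were 0, 2, 2 and 4 in recipients 1300, 1301, 1302 and 1308, 0, 0, 2 and 0 in Pax5 KO, and 0 in every Pax5 WT library. The 4 reads of recipient 1308 fell on Ifnb1, and the interferon alpha genes are near-identical copies among which the authors' counting could split or drop reads. Genes that respond to interferon were not at 0. Of 15 tested, 13 rose in Pax5 KO over Pax5 WT (median log2 difference 2.50), beside 35.7% of all genes. In P80R B-ALL over Pax5 WT 13 rose (median 4.82), beside 21.0% of all genes. In P80R B-ALL over Pax5 KO 8 rose and 1, the receptor subunit gene Ifnar1, fell (median 1.29), beside 17.6% and 20.8% of all genes. Without recipient 1308 the counts with P80R B-ALL were 14 higher over Pax5 WT (22.0% of all genes), and 6 higher and 2 lower over Pax5 KO (19.4% and 24.2%). Irf9, the DNA-binding part of the interferon-activated complex, was at 3044 ± 589 in P80R B-ALL, 1250 ± 144 in Pax5 KO and 306 ± 32.3 in Pax5 WT. It differed by 1.27 ± 0.17 between P80R B-ALL and Pax5 KO and by 3.29 ± 0.19 between P80R B-ALL and Pax5 WT (limma adjusted p = 0.00111 and 9.21e-06), or by 1.23 ± 0.19 and 3.25 ± 0.20 without recipient 1308, and by 2.03 ± 0.11 between Pax5 KO and Pax5 WT (9.97e-09). Isg15, an interferon-induced ubiquitin-like protein, was at 692, 1464, 974 and 2596 in the recipients, 187 to 219 in Pax5 KO and 11.9 to 57.6 in Pax5 WT. In recipient 1300, 14 of the 15 were at their lowest among the leukaemias, beside 26.5% of all tested genes. That library was also lowest for Irf7 and Bst2.

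Genes whose log2 values followed a given gene most closely over the 12 libraries were named for 3 of the 10. For Siglech these were Man1c1, Cd300ld, Ncf1, Ctnnd2 and Fes, with Pearson correlations of 0.996, 0.993, 0.987, 0.986 and 0.986. Man1c1, a mannosidase of the Golgi, stood at 398, 258, 620 and 2732 in the recipients, 729 to 935 in Pax5 KO and 43.9 to 65.0 in Pax5 WT. For Irf7 they were Gzma, Mpeg1, Nod1, Oasl2 and Ccr2, with 0.987, 0.984, 0.984, 0.982 and 0.978. Ly6d had 1 close companion, Ly6a, at 0.986, followed by Nudt22, Prr5, Them6 and Bpnt1 at 0.925, 0.922, 0.922 and 0.921. Ly6a, which encodes the progenitor antigen Sca-1 and belongs to the family of Ly6d, was at 101, 7373, 7374 and 36198 in the recipients, 2605 to 2918 in Pax5 KO and 631 to 751 in Pax5 WT, with recipient 1300 again below all other libraries. The 12 points fall into 3 groups and share library, depth and scaling, so these correlations describe the libraries and carry no p.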

How the data were processed

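The 12 libraries, 4 in each of 3 groups, were made with SMART-Seq v4, which does not mark strand, from RNA of sorted cells, per the labels' protocols. Reads were trimmed with fastp, aligned with STAR 2.7.8a to mm39 and counted with featureCounts, per the submitters' processing notes. The sources used here name neither the annotation nor the strand setting. In the deposited table the authors give signal values, namely read counts divided by 1 factor per library. Every nonzero value was a whole multiple of its library's step (100% within 0.001 of a whole read, step 0.722 to 1.38), so reads were recovered for depth, floors and count models. IDs were matched to symbols for 21780 of 21885 genes (105 not matched) with GENCODE M21 (GRCm38), used only for names, exon lengths and overlaps. No value column was left unmapped (0).

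Values were tested as log2(value + 1) over the 12200 genes with at least 10 in at least 4 libraries. A limma fit (version 3.58.1, R 4.3.3, trend and robust) used only the groups compared, because the spread is wider in P80R B-ALL, with Benjamini-Hochberg adjustment over all genes tested and a threshold of 0.05. Fold changes on this scale understate the change of low genes. Alternatives were edgeR 4.0.16 and DESeq2 1.42.0 on recovered reads, TMM scaling, pseudocounts of 0.5 and 5, no filter and a minimum of 50, shared fits, each library left out, and a replicate block. In simulated data, the share of false calls was above the threshold in both leukaemia comparisons. Floors cover counting error only.

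The 10 genes and all gene lists were chosen with earlier results of these data known. Genes beyond the 10 were named by rule: up to 3 per list and comparison with the lowest adjusted p, Tcf4, Bcl11a, Zeb2, Tlr7 and Tlr9 always, and the 5 closest by correlation to Siglech, Irf7 and Ly6d. Klk1, Klra17, Ifnb1 and Ifnar1 were named outside this rule, after their values were seen, as were the genes that make up counts of 5 or fewer. Some genes that the rule names are not reported here. Mx1 is not analysed here.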

Additional observations from a re-analysis of the deposited data

Results flagged for a closer look

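As a screen of 15 genes in groups of 4 libraries, the gap of the highest or lowest library to its nearest neighbour was divided by the range of the group, on the scaled reads. In 10 of 44 cases this share was above Dixon's 95% critical value for 4 samples, which chance passes in about 1 of 20 groups. The genes were chosen with these values known, so the number of cases is a description and no test. In 8 cases the library was recipient 1308, with Siglech at 26551 scaled reads, Irf8 at 106755, Bst2 at 30351, Ccr9 at 25992, Cox6a2 at 23684, Runx2 at 9134, Cadm1 at 697.5 and Tlr9 at 148.1. The same held in recipient 1308 for 7 of the 10 plasmacytoid dendritic cell genes and for 5.45% of all 12200 tested genes. The scale decided most of these cases: on log2 values only Irf8 of the 8 was above the critical value, at 0.907, and the other 7 were at 0.355 to 0.77, while 1.45% of all tested genes were above it. The other 2 cases were in fetal liver and small in size. Irf7 was lowest in Pax5 KO library 3 at 726.1, where the other 3 were at 744 to 748, and Spib was lowest in Pax5 WT library 4 at 6981, where the other 3 were at 7995 to 8194.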

How the results depend on the processing

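With all 12 libraries in 1 fit, Pax5 KO over Pax5 WT gave 4193 genes past the threshold, against 7901 in its own fit, and 14 of the other genes of plasmacytoid dendritic cells, against 25. Leaving out 1 library at a time gave 7276 to 8102 genes and 23 to 26 of those other genes. For P80R B-ALL over Pax5 KO the same gave 3118 to 5315 genes (4683 with all libraries) and 6 to 14 others (8 with all), and leaving out recipients 1300 and 1308 together, chosen after seeing the data, gave 15. For P80R B-ALL over Pax5 WT it gave 3477 to 5375 genes (4873) and 10 to 15 others (12). A Pax5 KO over Pax5 WT fit with the replicate block gave 7987 genes and 26 others. Deviations of same-numbered libraries correlated at 0.00493 to 0.0616, and those of differently numbered libraries at -0.0627 to 0.0355. Not every library correlated best with its own number. These small values cannot settle whether same-numbered libraries were paired. Of the genes past the threshold in P80R B-ALL over Pax5 KO, 45.9% were higher in limma, 58.1% in edgeR and 57.4% in DESeq2, where the median of all genes was -0.11, 0.06 and 0.08 on the log2 scale. The 10 genes changed sign in 16 of 180 values of P80R B-ALL over Pax5 KO, in 5 of 180 of P80R B-ALL over Pax5 WT (Irf8) and in 0 of 180 of Pax5 KO over Pax5 WT. Depth limits the Pax5 WT levels of Siglech, Runx2, Ccr9 and Cadm1, which rest on at most 11 reads per library.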
